A study of Homo sapiens with 6 samples.

Results

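The 10 genes of mucosal defence and mucin production that were followed in HCC827 cells are PIGR, LCN2, SLPI, WFDC2, CP, MUC1, MUC4, MUC13, MUC16 and MUC20. They were picked by symbol from the 28395 genes in the deposited table, with the response of this table already known, and PIGR was chosen as one of its largest rises. All 10 genes were listed, and 8 of them reached a mean signal of 10, the level used for the comparison across genes, as did 14215 genes of the table. MUC4 and MUC20 were below it. Because the choice used the contrast of erlotinib with DMSO, the differences of these 10 genes are given as a description with no p-value, and so are the counts of calls among them. HCC827 is an established human lung adenocarcinoma line whose EGFR carries an activating deletion, and erlotinib blocks the kinase of this receptor. Cells received DMSO, the solvent, in 3 libraries or 1 μM erlotinib in 3 libraries, and all were treated for 24 h in the same medium with serum and antibiotics. Every library was made from poly(A)-selected RNA and held between 20760204 and 24641819 reads on genes. Values are called signal, which is the number of reads on a gene divided by a size factor of the library. The labels do not say whether the 3 libraries of a condition came from separate cultures, so p-values measure the spread between these libraries, which may be technical.

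The wet surfaces of the airway and gut are guarded by secreted and membrane-bound products of their epithelium. PIGR, the polymeric immunoglobulin receptor, binds dimeric IgA at the basal side of the cell and carries it to the lumen. LCN2, lipocalin 2, withholds iron from bacteria by binding their siderophores, and SLPI is a secreted inhibitor of neutrophil elastase that has a whey acidic protein (WAP) fold. WFDC2, also known as HE4, has the same fold. CP, ceruloplasmin, is a copper-carrying ferroxidase. MUC1, MUC4, MUC13, MUC16 and MUC20 are mucins anchored in the plasma membrane, with extracellular domains rich in O-linked glycans, and MUC16 carries the CA125 antigen.

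The sequences before the start sites of PIGR and LCN2 are shown because PIGR had the largest difference of the 10 genes and LCN2 had the most signal per length of exon among them. They are the 250 bases upstream of each start in RefSeq on GRCh38.p14, written in the direction of transcription, with the matched motifs of LCN2 in capitals. The PIGR stretch lies on the minus strand at chr1:206946467-206946716 and the LCN2 stretch on the plus strand at chr9:128149203-128149452.
PIGR: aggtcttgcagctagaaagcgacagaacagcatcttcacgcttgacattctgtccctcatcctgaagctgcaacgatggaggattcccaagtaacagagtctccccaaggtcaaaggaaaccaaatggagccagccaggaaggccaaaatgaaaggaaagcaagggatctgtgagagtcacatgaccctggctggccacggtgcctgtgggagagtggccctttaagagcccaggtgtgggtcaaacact
LCN2: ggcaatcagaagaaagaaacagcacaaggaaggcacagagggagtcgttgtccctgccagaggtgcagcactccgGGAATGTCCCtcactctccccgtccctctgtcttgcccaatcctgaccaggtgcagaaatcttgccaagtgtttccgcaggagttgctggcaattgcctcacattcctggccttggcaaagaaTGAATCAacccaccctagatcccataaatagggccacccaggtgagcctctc
The first capitals in LCN2 match the NF-kB motif and begin 175 bases before the start, and the second match the AP-1 motif TGANTCA and begin 52 bases before it. The PIGR stretch holds neither. Promoters of 300 bases, from 250 before to 50 after the start, were read for 7 of the 10 genes. Those of SLPI, CP and MUC20 were not used here.

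Each promoter was searched on both strands for AP-1 (TGANTCA), E-box (CACGTG), GAS (TTCNNNGAA), interferon-response, forkhead (TGTTTAC), ETS (CCGGAAG) and NF-kB motifs. Among all 35116 promoters of the same length, 7.71% held the AP-1 letters, 7.26% the E-box, 7.66% GAS, 3.57% the interferon-response letters, 3.42% the forkhead letters, 10.3% the ETS letters and 5.91% the NF-kB motif. Besides LCN2, AP-1 letters stood in the promoter of MUC13 at chr3:124934923-124934929 and in the promoter of the downstream start of MUC16 at chr19:9010539-9010545. The windows around them are shown because MUC13 and MUC16 are the membrane mucins whose promoters shared a motif with LCN2, with the matched letters in capitals.
MUC13: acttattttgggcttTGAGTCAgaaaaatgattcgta
MUC16: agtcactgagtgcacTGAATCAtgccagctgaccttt
MUC4 had a GAS match that began 11 bases before its start. No match overlapped another, and PIGR, WFDC2, MUC1 and the upstream start of MUC16 had none of the 7 motifs in these windows. A match describes the letters only.

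The labelled cell type was checked with 6 epithelial markers. EPCAM, an epithelial adhesion protein, had mean signals of 9852 in DMSO and 9485 in erlotinib. CDH1, E-cadherin, had 27824 and 30609. The 4 keratins KRT7, KRT8, KRT18 and KRT19 were present in every library at a signal of at least 7605, and all of them fell with erlotinib by 0.39 to 1.25 on the log2 scale. KRT8 and KRT18 share sequence with near-identical copies, so their values are uncertain.

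Of the 8 genes above the level for comparison, 7 were higher with erlotinib at an adjusted p under 0.05 in limma, none was lower and WFDC2 was neither. Across all genes tested, 35.3% were higher and 35.4% were lower by the same rule, so 70.7% differed in either direction. These are 5012 genes higher and 5031 lower, a split that became 6156 higher and 3955 lower under scaling to the total count. The median log2 fold change was 1.73 over these 8 genes and 0.02 over all genes. In 6 of the 8 the call came with a rise of at least 1 log2 unit, against 17.0% of all genes. The 3 erlotinib libraries lay above all 3 DMSO libraries in 7 of the 8, against 36.7% of all genes, and lay below them in 36.9% of all genes but in none of these. Nothing is read from these counts, since the genes were chosen with the contrast known. RNA was taken from whole cultures, so a change in the share of cells that make a transcript and a change in the amount per cell cannot be told apart.

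**Figure D1:**
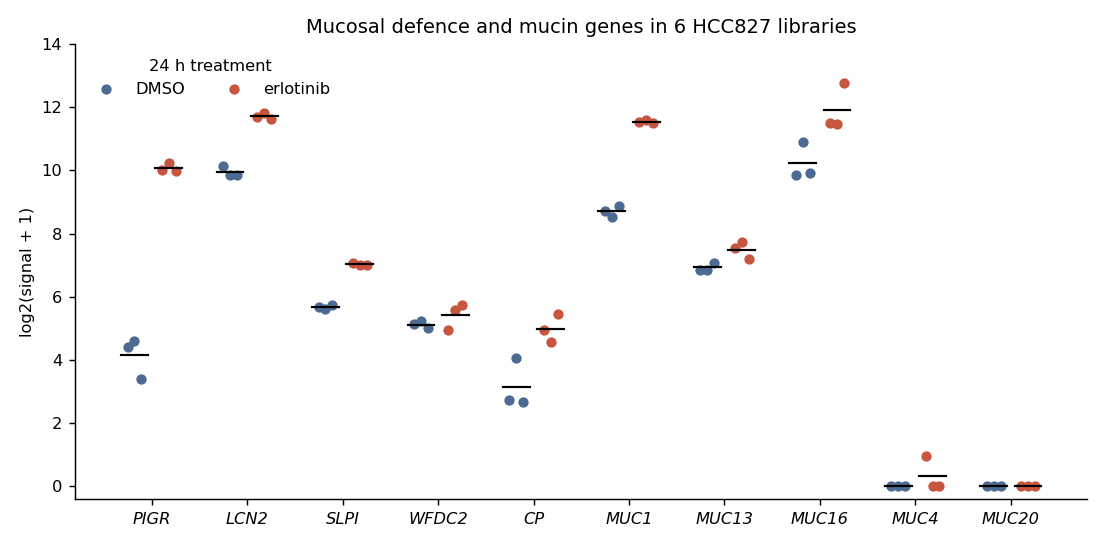
Signal on the log2(signal + 1) scale for each of the 10 genes, with 1 point per library (3 DMSO, 3 erlotinib) and a bar at the mean of the condition. The erlotinib points lie above the DMSO points in 7 genes, overlap them in WFDC2, and MUC4 and MUC20 sit at or near 0.

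PIGR (Entrez 5284, minus strand, chr1:206928522-206946466) changed most among the 10. Its signal was 20.4, 23.2 and 9.63 in the DMSO libraries and 1024, 1198 and 1018 in the erlotinib libraries. These signals rest on 18, 25 and 9 reads in DMSO and on 1110, 1210 and 1088 reads in erlotinib. The conditions were far apart, and the gene was barely counted in DMSO and clearly counted after 24 h of erlotinib. Mean signal went from 17.8 ± 7.17 to 1080.2 ± 102 (SD, n = 3), a ratio of means of 60.8. On the log2(signal + 1) scale, where 1 is added before the logarithm and low genes are understated, the difference was 5.93 (SE 0.24, 95% confidence interval 5.44 to 6.42). By size of rise it stood in place 6 of the 14215 genes. The libraries of DMSO differed more in relative terms, with a coefficient of variation of 40.4%, than those of erlotinib, with 9.44%. The difference stayed between 5.56 and 6.16 when any 1 library was left out, and was 5.33 with a pseudocount of 10.

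The genes whose pattern over the 6 libraries was nearest to that of PIGR were FOXJ1, NKAIN4 and LHX9. Likeness was the root mean square difference from PIGR in log2(signal + 1) after centring each gene, and it was 0.25 for FOXJ1, 0.39 for NKAIN4 and 0.48 for LHX9. FOXJ1, a transcription factor of motile cilia, had mean signals of 1.38 ± 1.21 in DMSO and 149 ± 8.91 in erlotinib (SD, n = 3). NKAIN4 was at 0 in every DMSO library and at 60.3 ± 3.69 in erlotinib. LHX9, a LIM homeobox factor, had 2.61 ± 2.80 and 149.7 ± 25.5. With only 2 conditions the measure mostly finds genes with a rise of the same size, and these 3 were less abundant than PIGR in signal, which is not corrected for length.

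LCN2 (Entrez 3934, chr9:128149453-128153453, plus strand) was already well counted without the drug. Its signal was 1117, 928 and 926 in DMSO and 3285, 3582 and 3161 in erlotinib, so every erlotinib library was well above every DMSO library. The means were 990.3 ± 110.1 and 3343 ± 216 (SD, n = 3). The difference was 1.76 on the log2(signal + 1) scale (SE 0.08, 95% confidence interval 1.58 to 1.93). Libraries of LCN2 agreed closely within a condition, with coefficients of variation of 11.1% and 6.46%.

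The WAP-fold genes SLPI and WFDC2 both lie on chromosome 20, and whether their responses differ from each other was not tested. SLPI (Entrez 6590, chr20:45252239-45254564) had a signal of 49.9, 48.3 and 52.4 in DMSO and of 133, 128 and 127 in erlotinib. The conditions did not overlap and the libraries within each were nearly equal, with means of 50.2 ± 2.09 and 129 ± 3.11 (SD, n = 3) and a difference of 1.35 log2 units (SE 0.21, 95% confidence interval 0.91 to 1.79). The SE is wider than this spread would give alone because limma shares the variance among genes of similar level. WFDC2 (Entrez 10406, chr20:45469753-45481532) had 34.0, 36.2 and 31.04 in DMSO and 29.5, 46.5 and 52.4 in erlotinib. Here the first erlotinib library was below all DMSO libraries and the other two were above them. The difference in WFDC2 was 0.30 log2 units (SE 0.32) with a 95% confidence interval from -0.37 to 0.96, so neither a fall nor a rise within that interval could be told from no difference at this depth. It ranged from 0.13 to 0.54 when 1 library at a time was left out.

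CP (Entrez 1356, chr3:149162414-149221829) was the scarcest of the 8 genes. The DMSO libraries held 5, 17 and 5 reads and the erlotinib libraries 32, 23 and 46. In signal these are 5.67, 15.8 and 5.35 against 29.5, 22.8 and 43.1, so the conditions did not overlap, but the second DMSO library came near the second of erlotinib. Means were 8.94 ± 5.93 and 31.8 ± 10.3 (SD, n = 3), with a difference of 1.83 log2 units (SE 0.51, 95% confidence interval 0.77 to 2.89), or 1.16 with a pseudocount of 10. The annotation of CP overlaps that of HPS3, a gene for lysosome-related organelles, whose mean signal fell from 1688 to 1071. The counted strand is not given in the sources used here, so reads where both genes lie cannot be assigned to one of them, and the part of HPS3 in the values of CP was not tested.

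Among the membrane mucins, MUC1 (Entrez 4582, chr1:155185824-155192915) had the largest and steadiest difference. Its signal was 419.7, 369.6 and 469.9 in DMSO and 2939, 3074 and 2871 in erlotinib. Each erlotinib library exceeded each DMSO library several times over. The means were 419.7 ± 50.1 and 2961 ± 103 (SD, n = 3), a ratio of means of 7.06 and a difference of 2.82 log2 units (SE 0.09, 95% confidence interval 2.63 to 3.01).

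MUC13 (Entrez 56667, chr3:124905442-124934751), a mucin best known from the gut surface, showed the smallest difference among the 7 genes called higher. Signal was 115, 114 and 134 in DMSO and 185, 213 and 146 in erlotinib. The third erlotinib library was only just above the third DMSO library, though no values overlapped. The means were 121 ± 11.2 and 181 ± 33.5 (SD, n = 3) and the difference 0.57 log2 units (SE 0.18, 95% confidence interval 0.19 to 0.94). Without the second erlotinib library it was 0.44 and no longer past the threshold.

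MUC16 (Entrez 94025, chr19:8848844-9065751) was well counted in every library, and its libraries spread widely. In DMSO its signal was 930.2, 1886 and 964, and in erlotinib it was 2915, 2830.3 and 6997. Although the conditions did not overlap, 1 library in each stood above its partners. The third erlotinib library had 2.40 times the next highest of its condition and the second DMSO library 1.96 times the next. Among the 5014 genes whose mean signal was 1000 or more, MUC16 was the only gene for which either library exceeded its partners by so much. The lowest erlotinib library was still 1.501 times the highest DMSO library. Means were 1260.2 ± 542 and 4248 ± 2382 (SD, n = 3), with a difference of 1.70 log2 units (SE 0.25, 95% confidence interval 1.17 to 2.22). It ranged from 1.27 to 2.03 when 1 library at a time was left out.

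**Figure D2:**
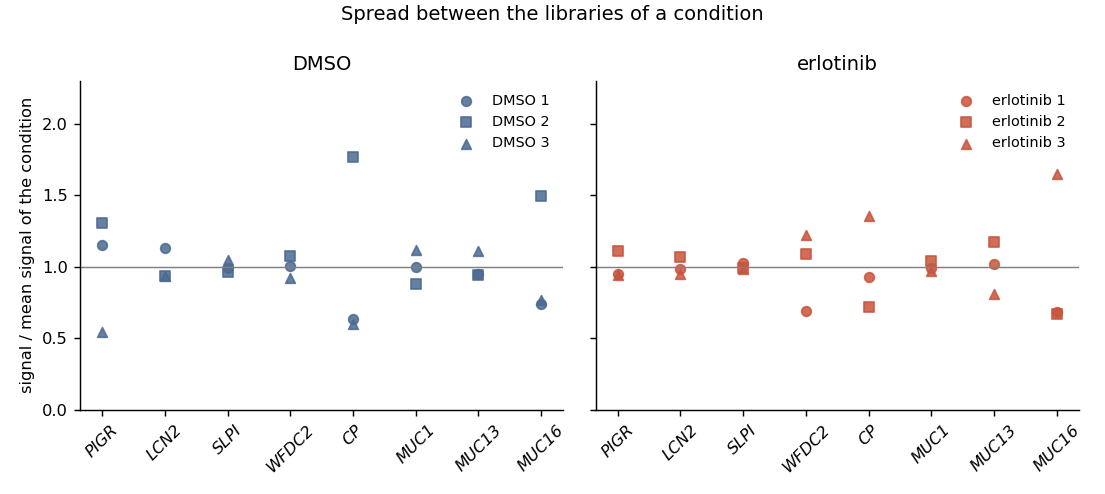
Signal of each library divided by the mean signal of its condition (y axis, no unit) for the 8 genes above the level for comparison, DMSO on the left and erlotinib on the right, with 1 symbol per library. SLPI lies close to 1 in both conditions, while MUC16 has 1 high library in each and CP and PIGR, which had few reads in DMSO, spread widely there.

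Differences say little about which of these transcripts was most abundant, because long genes collect more reads. Levels were therefore compared as RPKM, the reads per kilobase of exon scaled to the depth of the library, with all exons of a gene merged. In DMSO LCN2 led with an RPKM of 26.9, followed by MUC1 with 7.58 and SLPI with 3.65, and the libraries of these 3 genes did not overlap. MUC13, MUC16 and WFDC2 had levels of 1.499, 1.24 and 1.10, and MUC16, from 0.89 to 1.87, overlapped both neighbours. PIGR followed with 0.176 and CP with 0.0549, which also overlapped, since the lowest PIGR library was at 0.0972 and the highest CP library at 0.0976.

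In erlotinib LCN2 stayed first with an RPKM of 103 and MUC1 second with 60.6. PIGR was at 12.1 (11.5 to 13.3) and so moved from place 7 to place 3, just above SLPI at 10.7 (10.4 to 11.0). MUC16 was at 4.73, MUC13 at 2.54, WFDC2 at 1.57 and CP at 0.221. In this order no library of a gene reached the range of its neighbour. With the longest transcript as the length, however, MUC13 (2.50 to 3.60) overlapped both MUC16 (from 3.14) and WFDC2 (up to 3.16). The reads were aligned without splitting them across introns, so genes of short exons can be undercounted. The largest exon of the main transcript is 211 bases in LCN2, 181 in SLPI and 162 in WFDC2, but 21693 bases, or 49.5% of the transcript, in MUC16, and the size of this effect was not tested.

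**Figure D3:**
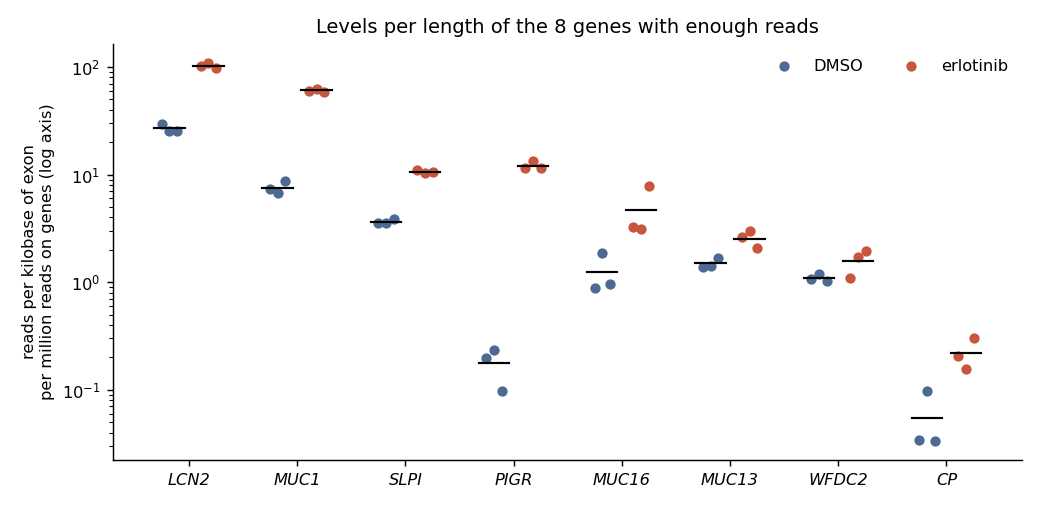
RPKM (reads per kilobase of exon, scaled to the reads on genes of the library, log axis) for 8 genes, with 1 point per library and a bar at the mean of each condition. LCN2 and MUC1 are the most abundant in both conditions, and PIGR moves from below WFDC2 in DMSO to above SLPI in erlotinib.

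MUC4 (Entrez 4585, chr3:195746771-195811929) and MUC20 (Entrez 200958, chr3:195720978-195733551) are neighbours on the long arm of chromosome 3 and were at or near 0. MUC20 had no read in any library. MUC4 had 1 read, a signal of 0.923, in the first erlotinib library and none in the other 5. A count of 0 allows up to 3 reads, or a signal of 2.77 to 3.40 depending on the library, and this limit covers counting error of the reads that were assigned only. For both genes 100% of the 31-base words of their exons also occur on alternate contigs of GRCh38, which hold other versions of some regions, and 0% occur in a single place. Reads that map to several places were not counted, and whether the alternate contigs were part of the index is not given in the sources used here. The 0 values therefore do not show that these mucins were absent.

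Of the 4 neighbours looked at, 3 had many reads and 1 had almost none. TNK2, a kinase gene, had mean signals of 1089 and 1357, and TFRC, the transferrin receptor, had 27581 and 4769, both with 100% of their words in a single place. PPP1R2, a phosphatase inhibitor gene with 63.5% of its words in a single place, had 1287 and 1206. APOD, an apolipoprotein gene, had 100% of its words in a single place but only 2 reads, both in the third erlotinib library. Across all protein-coding genes, 698 had at least 90% of their words on alternate contigs, and 88.3% of these had no read in any library, compared with 15.7% of the other 18437. These groups of genes can also differ in expression, and the part of shared sequence in their zeros was not tested. Among the genes followed here, the share of words found in a single place was 100% for LCN2, SLPI and WFDC2, 98.2% for MUC1, 98.5% for MUC13, 96.9% for MUC16, 89.1% for PIGR and 74.4% for CP.

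**Figure D4:**
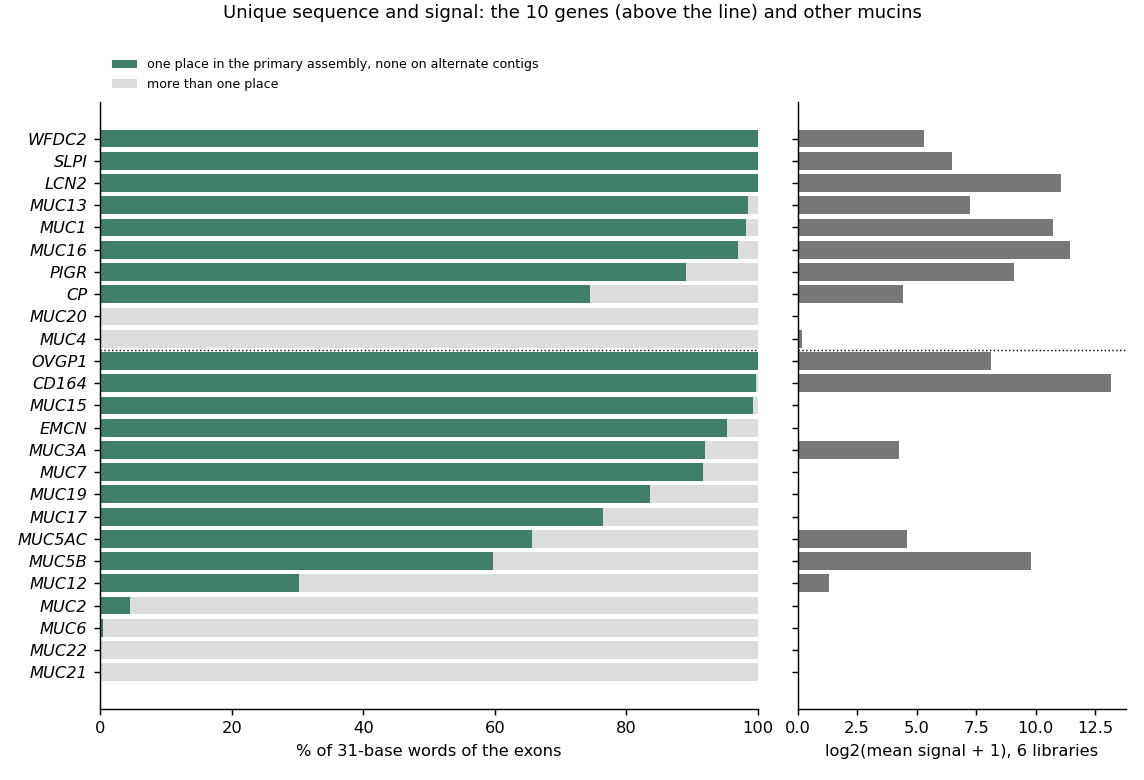
Left, percent of the 31-base words of the exons found in a single place of the genome, for the 10 genes above the dotted line and 15 other mucins below it. Right, log2(mean signal + 1) over the 6 libraries. MUC4, MUC20, MUC21 and MUC22 have 0% of words in a single place and almost no signal. MUC7, MUC15, MUC17, MUC19 and EMCN, with 76.4% to 99.2% of words in a single place, have no signal either.

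Related genes were then examined as lists written from general knowledge, but with earlier results of these data known. Counts came from limma across all 14215 genes, with 2-sided Benjamini-Hochberg adjusted p-values. The shares to set beside each count are those of all genes, 35.3% higher and 35.4% lower. Whether a list differs from them was not tested. Of 15 other mucins, 9 had no reads and 5 were tested. OVGP1, oviductin, was higher, with a signal of 78.3, 82.7 and 86.7 in DMSO and 452, 485 and 472 in erlotinib, a difference of 2.49 log2 units (SE 0.14, adjusted p = 2.93e-12). The other 4 were neither higher nor lower, with a median over the list of 0.13. CD164, a sialomucin with the highest signal of the list, had means of 8755 and 9536 (log2 difference 0.13, SE 0.07, adjusted p = 0.0949). The gel-forming mucins MUC5B and MUC5AC had means of 908 against 884 and of 26.3 against 20.46, and MUC3A had 13.9 against 22.3. MUC5AC, MUC3A and the mucins without reads are named after their values were seen, and 59.7% of the words of MUC5B were found in a single place. Among the mucins without reads, MUC2, MUC6, MUC21 and MUC22 had at least 90% of their words on alternate contigs, so the same limit as for MUC4 holds for them. The rest, MUC7, MUC15, MUC17, MUC19 and EMCN, had 76.4% to 99.2% of their words in a single place.

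Mucins are decorated in the Golgi by enzymes that start, extend and cap O-glycans. Of 25 such genes 23 were tested, and 9 rose (39.1%), 5 fell (21.7%) and 9 did neither, with a median of -0.04. Of all genes, 35.3% rose and 35.4% fell. The largest rises were in sialyltransferases that act on the first sugar of the glycan. ST6GALNAC1, which makes the sialyl-Tn antigen, had signals of 21.6, 14.9 and 10.7 in DMSO and 134, 152 and 173 in erlotinib (log2 difference 3.25, SE 0.30, adjusted p = 3.90e-09). ST6GALNAC2 went from a mean of 8.49 to 53.7 (log2 difference 2.76, SE 0.51, adjusted p = 6.35e-05), but the difference was 2.12 without the first DMSO library and 1.82 with a pseudocount of 10. These genes were low in DMSO, and no library of either overlapped between conditions. Among the genes that fell were GALNT18, a member of the family that attaches the first sugar, from 1531 to 693 (log2 difference -1.14, SE 0.09), and ST6GALNAC4, from 1016 to 622 (log2 difference -0.68, SE 0.12). The other 3 were GALNT1, GALNT3 and ST3GAL1, named here after their values were seen. GALNT2, the most abundant of the list, had means of 9676 and 8975 (adjusted p = 0.156).

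Genes for inhibitors of the WAP or Kunitz type were mostly silent. Of 17 such genes, 9 had no reads and only 3 were tested. Among these 3, WFDC3 alone has the WAP fold of SLPI and WFDC2, and SPINT1 and SPINT2 are of the Kunitz type. SPINT1, an inhibitor of the proteases that activate hepatocyte growth factor, rose from a mean of 2893 to 6124 (log2 difference 1.09, SE 0.07, adjusted p = 2.39e-11). WFDC3 rose from 99.2 to 204 (log2 difference 1.03, SE 0.18, adjusted p = 2.59e-05). SPINT2, the most abundant, fell from 16145 to 13836 (log2 difference -0.22, SE 0.06, adjusted p = 0.00241), a call that was lost under scaling to the total count. The median of the 3 was 1.03.

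Antimicrobial proteins other than LCN2 and SLPI were also sparse. Of 23 genes 10 had no reads, among them those for lactoferrin (LTF) and cathelicidin (CAMP), and 3 were tested with a median of 1.06. RNASE4, a secreted ribonuclease whose first exons are shared with ANG so that reads there belong to either gene, rose from 28.4, 23.2 and 24.6 to 218, 139 and 155 (log2 difference 2.68, SE 0.25, adjusted p = 5.58e-09). CCL28, a mucosal chemokine with antimicrobial activity that attracts cells secreting IgA, rose from a mean of 314 to 421 (log2 difference 0.42, SE 0.12, adjusted p = 0.00357). DUOX1, an oxidase that makes hydrogen peroxide, had means of 10.3 and 24.0 with overlapping libraries (adjusted p = 0.113). LTF, CAMP and DUOX1 were named after their values were seen.

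PIGR works with a transport route from the basal to the apical side. The list held 15 genes of this route or of the binding and assembly of antibodies, and 13 were tested. Of these, 6 rose (46.2%), 3 fell (23.1%) and 4 did neither, with a median of 0.04. Of all genes, 35.3% rose and 35.4% fell. FCGRT, the neonatal Fc receptor that carries IgG across epithelia, had a signal of 220.1, 166 and 218 in DMSO and of 1189.5, 980.1 and 1077 in erlotinib (log2 difference 2.43, SE 0.12, adjusted p = 3.83e-13). RAB17, a small GTPase of the recycling route, rose from 381 to 788 (log2 difference 1.05, SE 0.10, adjusted p = 7.44e-09). RAB3B, a GTPase known to bind the PIGR protein, fell from 3488 to 1139 (log2 difference -1.61, SE 0.08, adjusted p = 1.10e-13). MAL2, a protein needed for the transport of PIGR cargo and the most abundant of the list, fell from 25103 to 14266 (log2 difference -0.81, SE 0.06, adjusted p = 3.47e-10). The third called lower was RAB11FIP5, named after its values were seen, whose libraries overlapped, with 2812, 2079 and 2475 in DMSO and 1967, 1931 and 2149 in erlotinib. Only 2 genes of the list were lower without the first DMSO library and under total-count scaling. Without the third DMSO library 4 were lower. JCHAIN, which joins IgA into dimers in plasma cells, had no reads.

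Genes linked to the control of mucosal defence, not all of them inducers, were counted in a list of 30. Among them were cytokine receptors and transcription factors. Of these, 28 were tested, 18 rose (64.3%), 3 fell (10.7%) and 7 did neither, with a median log2 difference of 0.58. Of all genes, 35.3% rose and 35.4% fell. NFKBIZ, a nuclear cofactor of NF-kB known to take part in the induction of LCN2, rose from 1535, 1900.1 and 1970.4 to 7778, 7294 and 7526 (log2 difference 2.07, SE 0.08, adjusted p = 6.55e-15). CEBPA rose from a mean of 32.9 to 134 (log2 difference 2.06, SE 0.28, adjusted p = 1.16e-06). ELF3, an epithelial ETS factor and the most abundant of the list, rose from 4954 to 16087 (log2 difference 1.70, SE 0.06, adjusted p = 1.53e-15). The genes that fell were FOXA2, NFKB1 and LTBR, of which LTBR was named after its values were seen. The number lower was 2 under total-count scaling, without LTBR, and 4 without the second DMSO library, with SPDEF. FOXA2 fell from 81.2 to 38.7 (log2 difference -1.01, SE 0.28, adjusted p = 0.00304) and NFKB1 from 1643 to 1116 (log2 difference -0.55, SE 0.08, adjusted p = 5.58e-06).

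Iron and copper handling is the field of LCN2 and CP. Of 24 genes 19 were tested, and 10 rose (52.6%), 6 fell (31.6%) and 3 did neither, with a median of 0.52. Of all genes, 35.3% rose and 35.4% fell. SLC40A1, ferroportin, which exports iron and works with ferroxidases such as CP, went from 6.81, 5.57 and 4.28 to 66.4, 105 and 61.8 (log2 difference 3.56, SE 0.41, adjusted p = 1.41e-07), or 2.47 with a pseudocount of 10. STEAP4, a metalloreductase, rose from 67.3 to 491 (log2 difference 2.85, SE 0.15, adjusted p = 7.77e-13). TFRC, which imports transferrin iron, fell from 26702, 30166 and 25875 to 4561, 4785 and 4962 (log2 difference -2.53, SE 0.07, adjusted p = 2.84e-17), with no overlap. ATOX1, a copper chaperone, fell from 309 to 150.1 (log2 difference -1.03, SE 0.14, adjusted p = 1.76e-06). FTH1, the ferritin heavy chain, had the highest signal of the list and rose from 21165 to 41919 (log2 difference 0.99, SE 0.07, adjusted p = 9.14e-11), but only 42.4% of its words were found in a single place and its value is uncertain.

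The last list held 13 proteins that bind mucins, share their complexes or shed them. Of 12 tested, 5 rose (41.7%), 4 fell (33.3%) and 3 did neither, with a median of 0.14. Of all genes, 35.3% rose and 35.4% fell. LGALS9, a galectin, rose from 4.54, 0 and 14.98 to 82.1, 97.02 and 106 (log2 difference 4.42, SE 0.66, adjusted p = 5.00e-06), and 60.0% of its words were found in a single place, so its value is uncertain. It was 3.34 without the second DMSO library, 5.34 without the third, and 2.77 and 5.63 with pseudocounts of 10 and 0.1. ERBB3, a receptor that partners with EGFR and with ERBB2, rose from 1783 to 5723 (log2 difference 1.68, SE 0.07, adjusted p = 2.52e-14). The others that rose were ERBB2, LGALS3 and ICAM1, named after their values were seen. MET, the most abundant of the list, fell from 34553 to 20251 (log2 difference -0.77, SE 0.06, adjusted p = 9.21e-10), and LGALS1, a galectin, fell from 944 to 604 (log2 difference -0.64, SE 0.09, adjusted p = 4.17e-06). EZR and CTNNB1, also named after their values were seen, were the other two that fell.

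**Figure D5:**
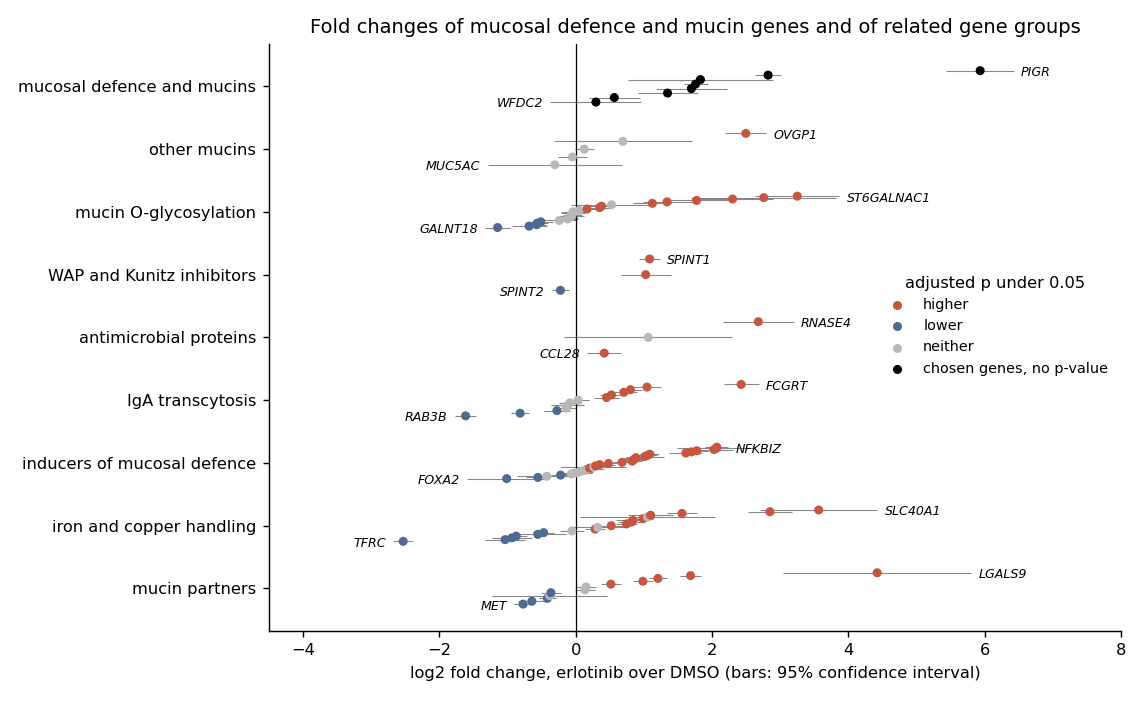
Log2 fold change of erlotinib over DMSO (x axis) with its 95% confidence interval for the tested genes of each list, with the genes of largest and smallest value named. Black points are the 8 chosen genes, shown without a p-value, red and blue points are genes higher or lower at an adjusted p under 0.05 in limma, and grey points are neither. PIGR lies farthest right at 5.93 and TFRC farthest left at -2.53.

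Markers of secretory airway cells and of leukocytes were examined because such cells also make these proteins. Of 20 goblet and secretory markers, 7 had no reads, namely SCGB1A1, SCGB3A2, FOXA3, TFF2, TFF3, CLCA1 and ITLN1. The summed signal of the list was 1303, 1185 and 1350 in DMSO and 1504, 1544 and 1794 in erlotinib, most of it from MUC5B. Of the 5 tested 2 rose (40.0%, against 35.3% of all genes). These were AGR2, from a mean of 189.9 to 472, and FCGBP, from 42.3 to 135, both named after their values were seen. SPDEF, a factor of goblet cells that was also named after its values were seen, had 112, 92.9 and 119.9 in DMSO and 67.4, 85.1 and 89.9 in erlotinib, so its erlotinib libraries all lay lower (log2 difference -0.42, SE 0.21, adjusted p = 0.0804). FCGBP has only 55.7% of its words in a single place and is uncertain. Without MUC5B the summed signal was 406, 327 and 381 against 659, 771 and 761, and AGR2 was the most abundant gene in it. Of the 4 tested genes in this sum, AGR2 and FCGBP were called higher, while SPDEF and MUC5AC had lower means without a call. The sum is therefore not a rise of the markers in general, and its part in the rise of PIGR and MUC1 was not tested. MUC5AC, MUC5B, SPDEF, BPIFA1, BPIFB1, JCHAIN and LYZ stand in these marker lists and in a list above. Of 12 leukocyte markers, 4 had no reads (JCHAIN, FCGR3B, ELANE and S100A12) and 2 were tested. ELANE had 100% of its words on alternate contigs and 0% in a single place, so its zero carries the same limit as that of MUC4. FCGR3B had 51.3% of its words in a single place and 48.7% repeated on the primary chromosomes, so its zero is uncertain too. CD68, a lysosomal protein also made by epithelial lines, supplied nearly all the signal and had means of 2898 and 3394 (log2 difference 0.23, SE 0.07, adjusted p = 0.00762). Without it the sum was 36.3, 25.1 and 48.2 in DMSO and 44.3, 12.9 and 30.9 in erlotinib, with overlapping libraries. CD79A and MPO, both named after their values were seen, lay lower in all erlotinib libraries. CD79A had 17.0, 14.9 and 21.4 in DMSO and 14.8, 1.98 and 8.42 in erlotinib (log2 difference -1.28, SE 0.63, adjusted p = 0.0739). Its second DMSO library and its first erlotinib library each held 16 reads. MPO, below the level for comparison, had 12, 4 and 10 reads in DMSO and 0 in each erlotinib library. PTPRC, CD14 and LYZ, also below it and named after their values were seen, went the other way in mean, with overlapping libraries. Their means in DMSO and erlotinib were 1.78 and 4.75, 6.60 and 11.8, and 1.02 and 2.53. MZB1 and CSF3R, named likewise, had a few reads in erlotinib only.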

How the data were processed

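RNA from 6 samples of HCC827 cells treated with DMSO or erlotinib (3 libraries each) was sequenced after poly(A) selection. According to the submitters' processing notes, reads were aligned to GRCh38 with Bowtie2 2.3.4, counted with featureCounts 1.6.3 and analysed with DESeq2 1.18.1. The authors kept uniquely mapped reads, and the deposited values are a signal, that is reads on a gene divided by 1 size factor per library. Whole reads were recovered from 100% of values (tolerance 0.01) and used for the count tests and the levels per length. Size factors ran from 0.882 to 1.08. No column was left out (0 not used) and 475 genes without a symbol were kept. Correlations on the log2 scale were 0.983 to 0.990 within conditions and 0.901 to 0.910 between them, and counts of same-condition libraries differed by a chi-square of at least 4.13 per degree of freedom, so none was a duplicate.

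The 14215 genes whose mean signal was 10 or more were fitted with limma 3.58.1 (R 4.3.3) on log2(signal + 1), with a trend of variance on the mean and Benjamini-Hochberg adjustment at 0.05. The 10 genes and all lists were chosen with earlier results of these data known. Named from each list were the 2 largest rises and 2 largest falls past the threshold without overlap, and the gene of highest signal, and from the marker lists the gene of highest signal and those without reads. The 3 genes nearest to PIGR were named by their likeness. Other names are marked, apart from the epithelial markers, HPS3, ANG and the neighbours of MUC4, which were named for what they are or where they lie. In simulated counts the fit recovered 183 of the 196 changed genes tested, and 3.68% of its calls were false. Far fewer genes changed there than the 70.7% called here, so it does not test the size factors in such a setting. Alternatives were DESeq2 1.42.0, edgeR 4.0.16, limma-voom with TMM factors, total-count scaling, pseudocounts of 0.1 and 10, other filters and each library left out. Exon structure came from GENCODE release 44, and 31-base words of exons were counted over the primary chromosomes and 261 alternate contigs. Positions and promoters came from RefSeq, in which all 10 genes were found.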

Additional observations from a re-analysis of the deposited data

How the results depend on the processing

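Of the 8 genes above the level for comparison, 5 to 7 were higher and 0 lower under every alternative, with 6 to 7 when 1 library was left out. The lowest count came when at least 10 reads were asked of each library, which leaves PIGR and CP untested. Of all genes, 35.3% were higher in the main fit. Nothing is read from the counts among the chosen genes, since the contrast was known when they were picked. The difference of PIGR ranged from 5.33, with a pseudocount of 10, to 6.16. Across all genes 5012 were higher and 5031 lower, against 6156 and 3955 under scaling to the total count, which moved the median of all genes from 0.02 to 0.19. Leaving out 1 library gave 4585 to 5094 higher and 4702 to 5096 lower. Under total-count scaling GALNT2 turned to 0.074 and MUC5B to 0.13, and MUC5B ranged from -0.17 to 0.043 when 1 library was left out. None of these reversed values passed the threshold. Other mucins had 2 genes higher under limma-voom and total-count scaling (1 to 2 with 1 library left out), the second being CD164, and the inhibitors had 0 lower under total-count scaling. The call for CD68 was lost without the second erlotinib library (0.20). GALNT2 fell by 0.16 with a call without the second DMSO library. With the length of the longest transcript, levels per length were 48.9 and 187 for LCN2 and 10.1 and 80.3 for MUC1, and WFDC2 (1.79) then stood above MUC16 (1.25) in DMSO. No paired analysis was possible because the erlotinib columns carry other numbers than the labels. Few reads limit CP, WFDC2 and PIGR in DMSO. Whether shared sequence lowered MUC4 and MUC20 was not tested.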
